A study of Homo sapiens with 6 samples.

Results

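The interferon-stimulated antiviral genes were examined in KHOS and U-2OS, which are established lines of human osteosarcoma, a bone tumour. Each line was transfected with CDK11 siRNA at 40 nM, transfected with nonspecific siRNA at 40 nM, or left untransfected, and 1 array was run for each of these 6 conditions. CDK11 siRNA targets a cyclin-dependent kinase of transcription and splicing, and nonspecific siRNA was the study's transfection control. The study's methods give 48 h for RNA collection after CDK11 siRNA. RNA of 3 flasks was pooled for each array, so an array carries no estimate of the spread between cultures. No array of cells given the transfection reagent alone was analysed here, and reagent, RNA and handling cannot be told apart in any comparison with untransfected cells. The genes were a list of 44 symbols, and their 74 probe sets were found by the gene symbol of the array's annotation. A probe set was kept when the highest of its 6 values exceeded a signal of 100, which is 6.64 on the log2 scale used throughout. This left 67 probe sets of 42 genes, out of 16397 kept probe sets of 54675 on the array. Of the listed genes only the chemokine CXCL10 and the lysosomal protein LAMP3 had no probe set above the limit. The probe sets nearest the limit were those of OAS2 at 6.70 and OAS3 at 6.81 just above it, and those of XAF1 at 6.03 and LAMP3 at 5.77 just below it.

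Type I and type III interferons are secreted by cells that sense foreign nucleic acid. They bind receptors at the cell surface, and a transcription factor complex that contains IRF9 then binds interferon-stimulated response elements in promoters. The induced proteins degrade or sequester viral RNA, block viral entry and release, and modify other proteins. Double-stranded RNA is itself one of the signals that start this pathway.

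Promoter sequences of 4 genes are shown because the genes behaved differently on the arrays. ISG15 was bright in both lines, IFIT1 was among the members with the largest gap between the untransfected lines, RTP4 differed most between transfected and untransfected KHOS cells, and ISG20 was higher with both siRNAs in both lines. RTP4 was picked after its values were seen. Each is the 150 bases before the transcription start in RefSeq, build GRCh38.p14, all on the plus strand, and capitals mark matches to the core of the response element, 2 copies of GAAA with 2 bases of any kind between them, or of TTTC for the other strand. The positions are chr1:1013347-1013496 for ISG15, chr10:89392473-89392622 for IFIT1, chr3:187368235-187368384 for RTP4 and chr15:88638866-88639015 for ISG20.
ISG15: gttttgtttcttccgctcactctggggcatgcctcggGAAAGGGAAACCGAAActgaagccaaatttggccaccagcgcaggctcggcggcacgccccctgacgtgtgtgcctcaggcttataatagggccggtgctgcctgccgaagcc
IFIT1: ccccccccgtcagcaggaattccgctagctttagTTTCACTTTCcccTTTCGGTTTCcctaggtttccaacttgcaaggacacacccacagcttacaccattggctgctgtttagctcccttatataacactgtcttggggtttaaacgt
RTP4: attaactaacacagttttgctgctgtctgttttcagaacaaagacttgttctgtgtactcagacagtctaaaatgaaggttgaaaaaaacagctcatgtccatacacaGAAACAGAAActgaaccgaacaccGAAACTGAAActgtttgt
ISG20: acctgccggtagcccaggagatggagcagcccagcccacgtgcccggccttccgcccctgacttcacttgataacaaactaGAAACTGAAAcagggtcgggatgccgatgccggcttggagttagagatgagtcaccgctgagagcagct
The ISG15, IFIT1 and RTP4 windows held 2 matches each, which overlap in ISG15, and the ISG20 window held 1. In windows of 300 bases (250 before and 50 after the start), searched on both strands with overlaps allowed, this motif was present for 28 of the 37 member genes in the promoter table (75.7%), against 4.38% of all 27305 genes. A match is a run of letters and not a measured site.

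Among those 37 genes, 9 had no match: CMPK2, CXCL11, HERC6, IFI35, OAS1, SAMD9L, SP110, UBE2L6 and XAF1. In KHOS cells with CDK11 siRNA, the log2 difference from untransfected cells had a median of 1.76 over the 27 kept genes with a match and 1.84 over the 9 without. With nonspecific siRNA these medians were 1.72 and 1.76. The genes with and without the motif thus overlapped in their response. All 44 genes were placed on 15 chromosomes, and 22 of them lie within 3 coding genes of another member, as do the neighbours IFI44L and IFI44, IFIT2 and IFIT3, and OAS1 and OAS3.

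The normalization sets the 6 arrays to a like distribution, so overall levels carry little information on quality. Between 24.8% and 25.9% of all probe sets were above the limit, and the median log2 signal of all probe sets lay between 2.92 and 2.98. The brightest probe set assigned to CDK11A and CDK11B had a log2 level of 7.64 with CDK11 siRNA, 9.92 with nonspecific siRNA and 9.69 untransfected in KHOS, and of 6.24 with CDK11 siRNA, 8.88 with nonspecific siRNA and 8.97 untransfected in U-2OS. The 3′ minus 5′ log2 signal of the actin control, a measure of RNA integrity, was between 3.63 and 3.87 on the KHOS arrays and between 3.38 and 3.63 on the U-2OS arrays. None of the 4 leukocyte marker genes on the array was above the limit, and the highest of their probe sets, that of LYZ, was at 2.90 to 3.04. Of the osteoblast and mesenchymal markers 4 of 7 were above it, and of the epithelial markers 1 of 3, EPCAM. On arrays of pooled RNA, more cells that express a gene and more RNA per cell cannot be told apart.

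In KHOS, the interferon-stimulated genes were higher in transfected than in untransfected cells with either siRNA. With CDK11 siRNA 52 of the 67 probe sets were more than 2-fold higher and 0 were more than 2-fold lower, against 3.29% higher and 3.21% lower among all 16397. With nonspecific siRNA the counts were 59 and 0, against 1.29% higher and 0.799% lower among all. The median log2 difference of the members was 1.82 with CDK11 siRNA (3.54-fold) and 1.75 with nonspecific siRNA (3.37-fold), while the median of all kept probe sets was 0.00 in both. The 2 comparisons share the untransfected array. All 67 probe sets had both siRNA arrays above the untransfected array, and 51 were past 2-fold on both, which covered 32 of the 42 genes by their brightest probe set. No share over all kept probe sets is given for these joint counts, so they only describe the members. Of the 50 probe sets with the largest positive difference in KHOS, 19 were members with CDK11 siRNA and 30 with nonspecific siRNA. Over the 48 members above the limit in untransfected KHOS, 35 were past 2-fold higher with CDK11 siRNA and 42 with nonspecific siRNA, with medians of 1.71 and 1.69. Most of the remaining members were kept only through a transfected KHOS array. The counts over all 67 are thus partly selected on the difference they report, so they describe the members and do not support a difference.

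In U-2OS, few members differed by 2-fold. With CDK11 siRNA 6 of the 67 probe sets were more than 2-fold higher and 0 lower, against 1.39% and 2.12% of all, and the median log2 difference was 0.06 (1.04-fold). They were 2 probe sets of ISG20 and 1 each of OAS1, OASL, IFIT3 and SAMD9. Those of OAS1, OASL, IFIT3 and SAMD9 were under the limit on every U-2OS array. The brightest probe sets of OASL and SAMD9 gave log2 differences of only 0.43 and 0.38. With nonspecific siRNA 2 were higher and 0 lower, against 1.02% and 1.88% of all, both of them ISG20, and the median was 0.02 (1.01-fold). Both siRNA arrays lay above the untransfected array for 34 probe sets and below it for 19. These joint counts also have no share over all kept probe sets beside them. Most members were dim in this line: 20 probe sets were above the limit on any U-2OS array, and 47 on none. The plots of the levels and of the differences show this contrast between the lines.

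**Figure D1:**
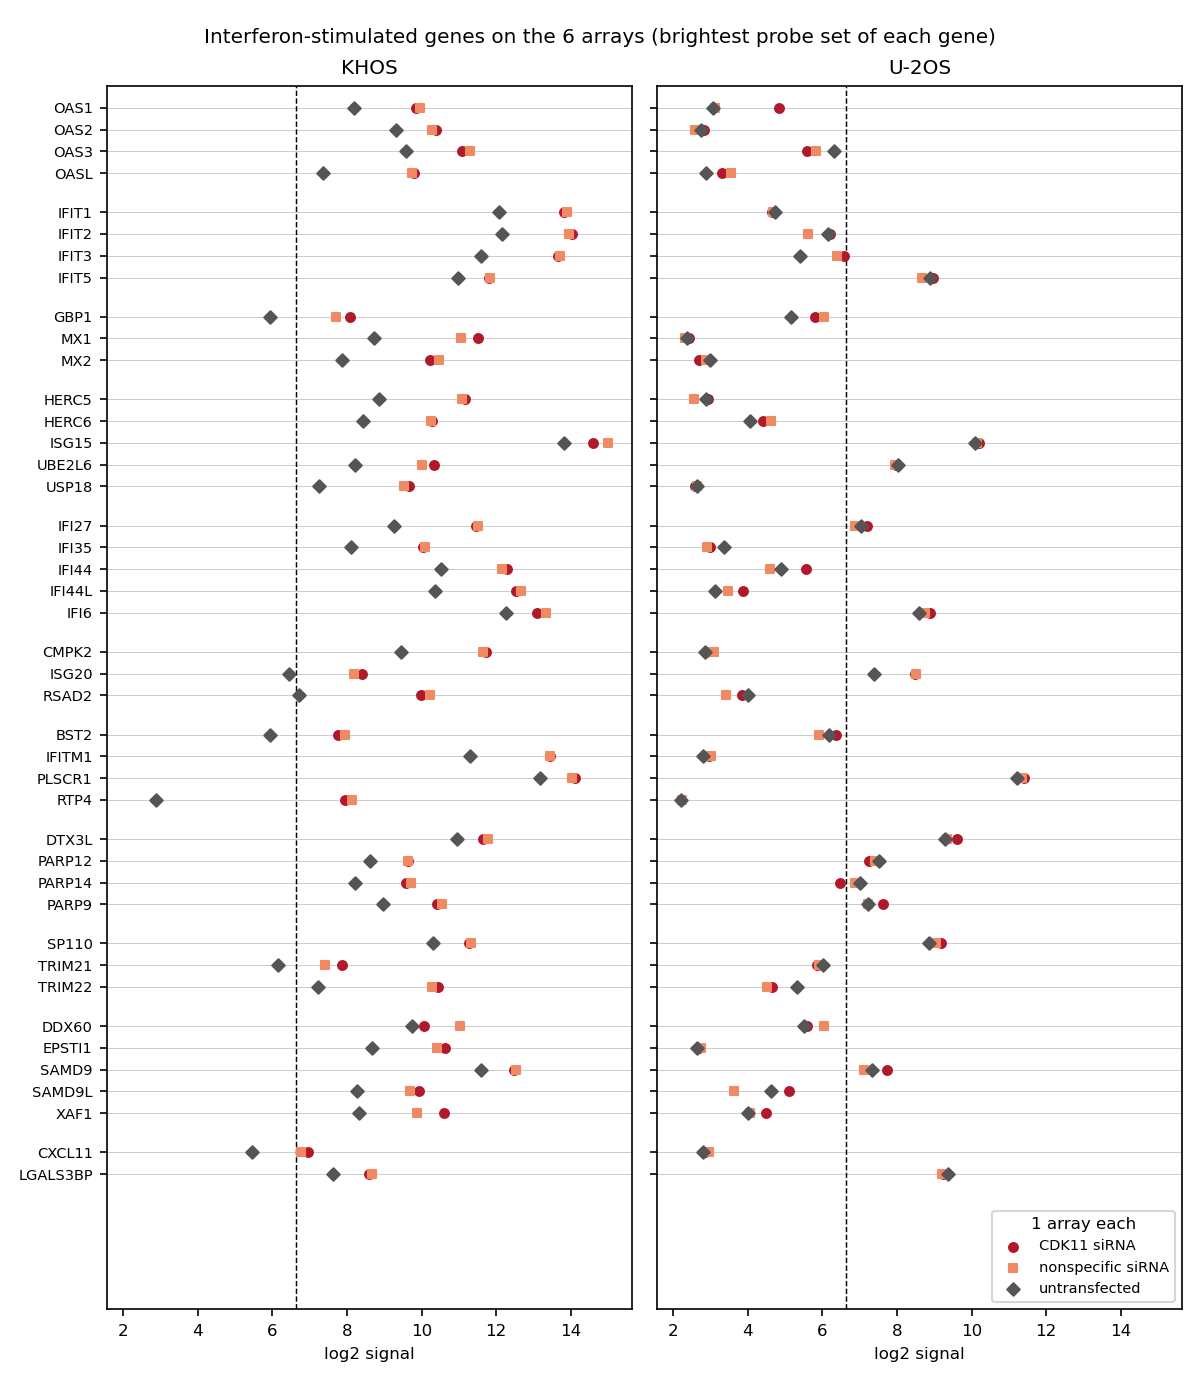
Log2 signal of the brightest probe set of each of the 42 genes, with KHOS in the left panel and U-2OS in the right. Each point is 1 array and the dashed line is the signal limit of 6.64; in KHOS the untransfected point lies left of both siRNA points for every gene.

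**Figure D2:**
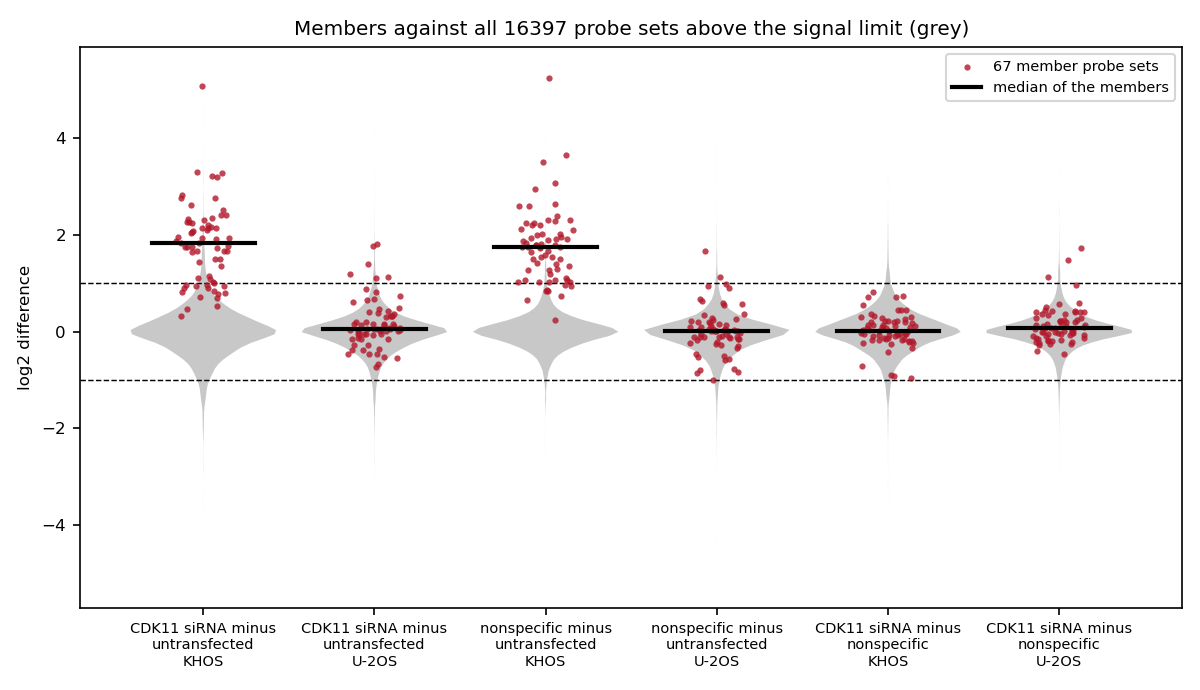
Log2 differences of the 67 member probe sets (coloured points) in each comparison, over the distribution of all 16397 kept probe sets (grey). The members' medians are 1.82 and 1.75 in KHOS against untransfected cells, and 0.06 and 0.02 in U-2OS.

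The untransfected lines already differed. In untransfected KHOS 57 of 67 probe sets were more than 2-fold higher than in untransfected U-2OS and 1 was lower, against 22.1% and 16% of all, with a median log2 difference of 3.03 (8.18-fold). The median was 3.70 over 1 probe set per gene, and 1.66 over the 19 probe sets above the limit in untransfected U-2OS. Of the 67, 48 were above the limit in untransfected KHOS and 19 in untransfected U-2OS. The 3 KHOS arrays all lay above the 3 U-2OS arrays for 60 of 67 probe sets, against 40.3% of all. In limma with the 3 transfections as a block, 61 of the 67 were higher in KHOS and 1 was lower at a Benjamini-Hochberg adjusted p under 0.05, against 39.6% and 32.6% of all, and the median difference was 4.48. Of the 67 probe sets, 47 were kept only through their KHOS arrays, where they are high, so these counts over all 67 describe the members and do not support a difference. Among the 20 above the limit on an array of each line, a restriction chosen after seeing the data, 17 were higher in KHOS and 1 was lower in the same limma fit, against 35.9% and 30.8% of all 12874 such probe sets, with a median of 2.30. The 3 arrays of a line are 3 transfections and not replicates of 1 condition, and the difference includes the response of KHOS to transfection.

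**Figure D3:**
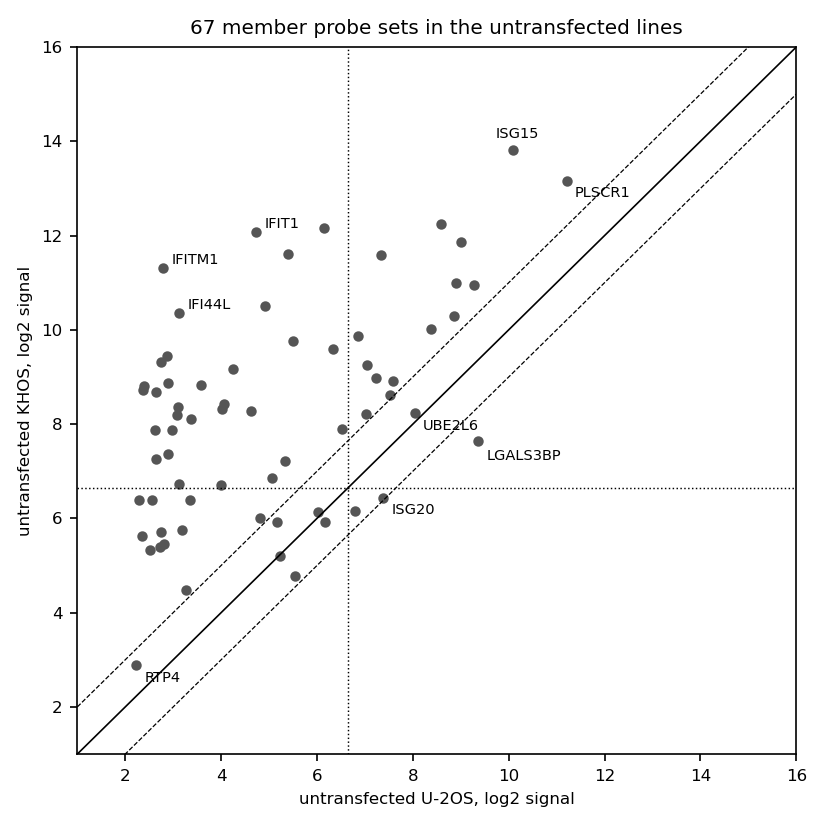
Log2 signal of the 67 member probe sets in untransfected KHOS (y axis) against untransfected U-2OS (x axis). Most points lie above the diagonal, with 57 more than 2-fold higher in KHOS and 1 lower.

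IFITM1, which hinders the fusion of viral and cell membranes, had the largest difference between the untransfected lines. Its log2 levels were 13.45 with CDK11 siRNA, 13.44 with nonspecific siRNA and 11.31 untransfected in KHOS, against 2.96 with CDK11 siRNA, 3.03 with nonspecific siRNA and 2.79 untransfected in U-2OS. The untransfected lines differed by 8.51, a 366-fold difference, and the U-2OS value is under the signal limit, so the size depends on how the authors' normalization set low signals. IFIT1 (7.35), IFI44L (7.23), CMPK2 (6.58) and OAS2 (6.57) followed, also with U-2OS levels under the limit. At the other end, LGALS3BP, a secreted galectin-binding glycoprotein, was lower in KHOS, at 8.58 with CDK11 siRNA, 8.67 with nonspecific siRNA and 7.64 untransfected in KHOS, against 9.23 with CDK11 siRNA, 9.21 with nonspecific siRNA and 9.36 untransfected in U-2OS. It was the member that passed limma as lower in KHOS (log2 difference -0.97, SE 0.26, adjusted p 0.0236, n = 3 arrays a line), a call that was lost when no signal limit was set. BST2, the tetherin that holds budding virus at the membrane, and ISG20 did not pass, and neither did 2 of 3 GBP1 probe sets.

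The OAS genes encode synthetases that make oligoadenylates on double-stranded RNA and so activate RNase L, and OASL is a relative without that activity. In KHOS 8 of their 9 probe sets were past 2-fold with CDK11 siRNA and 7 with nonspecific siRNA. OAS3 had log2 levels of 11.09 with CDK11 siRNA, 11.31 with nonspecific siRNA and 9.58 untransfected in KHOS, against 5.60 with CDK11 siRNA, 5.83 with nonspecific siRNA and 6.33 untransfected in U-2OS. OAS2 had 10.40 with CDK11 siRNA, 10.27 with nonspecific siRNA and 9.31 untransfected in KHOS, against 2.82 with CDK11 siRNA, 2.58 with nonspecific siRNA and 2.75 untransfected in U-2OS. Both were higher with siRNA in KHOS, and the U-2OS arrays were under the limit. OAS1 had 9.85 with CDK11 siRNA, 9.95 with nonspecific siRNA and 8.19 untransfected in KHOS, against 4.85 with CDK11 siRNA, 3.12 with nonspecific siRNA and 3.08 untransfected in U-2OS. Its CDK11 siRNA array was the high one in U-2OS, by 1.77 over the untransfected array and by 1.73 over nonspecific siRNA, still under the limit, and its other probe set differed by 0.82 from untransfected. Across the 3 OAS2 probe sets the KHOS difference with CDK11 siRNA ran between 0.69 and 2.25, and the 2 OASL probe sets gave 2.42 and 3.23.

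IFIT proteins bind viral RNA with foreign ends. In KHOS 5 of their 7 probe sets were past 2-fold with CDK11 siRNA and 6 with nonspecific siRNA. IFIT5, the brightest of the family by its mean, had 11.80 with CDK11 siRNA, 11.84 with nonspecific siRNA and 10.99 untransfected in KHOS. In U-2OS it had 8.96 with CDK11 siRNA, 8.67 with nonspecific siRNA and 8.90 untransfected. On this probe set the KHOS difference stayed under 2-fold with both siRNAs. The other IFIT5 probe set was 1.87-fold higher in KHOS with CDK11 siRNA and 2.11-fold with nonspecific siRNA. IFIT1 had 13.83 with CDK11 siRNA, 13.90 with nonspecific siRNA and 12.07 untransfected in KHOS, against 4.66 with CDK11 siRNA, 4.68 with nonspecific siRNA and 4.73 untransfected in U-2OS, where the 3 arrays lay close together. IFIT3 had 13.65 with CDK11 siRNA, 13.70 with nonspecific siRNA and 11.60 untransfected in KHOS, against 6.58 with CDK11 siRNA, 6.39 with nonspecific siRNA and 5.40 untransfected in U-2OS. Its U-2OS difference was 1.18 with CDK11 siRNA, and its other probe set there gave -0.52, so the IFIT3 probe sets disagreed in U-2OS.

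MX1 and MX2 are dynamin-like GTPases that trap viral nucleocapsids, and GBP1 is a guanylate-binding protein. All 5 probe sets of these genes were past 2-fold in KHOS with each siRNA. MX1 was 6.84-fold higher with CDK11 siRNA and 4.99-fold with nonspecific siRNA, and MX2 5.10-fold with CDK11 siRNA and 6.08-fold with nonspecific siRNA. GBP1 had 8.08 with CDK11 siRNA, 7.72 with nonspecific siRNA and 5.93 untransfected in KHOS, against 5.80 with CDK11 siRNA, 6.06 with nonspecific siRNA and 5.16 untransfected in U-2OS. In U-2OS none of the 5 was past 2-fold.

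ISG15 is a ubiquitin-like protein that UBE2L6 and HERC5 attach to other proteins and USP18 removes, and HERC6 is a relative of HERC5. ISG15 had 14.59 with CDK11 siRNA, 15.001 with nonspecific siRNA and 13.81 untransfected in KHOS, against 10.21 with CDK11 siRNA, 10.14 with nonspecific siRNA and 10.08 untransfected in U-2OS. In KHOS its difference with CDK11 siRNA was under 2-fold (1.72-fold) and with nonspecific siRNA past it (2.28-fold). The other 4 genes were past 2-fold in KHOS with both siRNAs, HERC5 at 4.93-fold with CDK11 siRNA and 4.62-fold with nonspecific siRNA. UBE2L6 had 10.34 with CDK11 siRNA, 10.02 with nonspecific siRNA and 8.23 untransfected in KHOS, against 7.99 with CDK11 siRNA, 7.95 with nonspecific siRNA and 8.04 untransfected in U-2OS, and the untransfected lines differed by 0.19. It was above the limit on all 6 arrays.

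The IFI genes are a loose set named for their induction, whose molecular roles are less settled. In KHOS 5 of their 6 probe sets were past 2-fold with CDK11 siRNA and 6 with nonspecific siRNA. IFI6 had 13.09 with CDK11 siRNA, 13.33 with nonspecific siRNA and 12.25 untransfected in KHOS, against 8.89 with CDK11 siRNA, 8.76 with nonspecific siRNA and 8.59 untransfected in U-2OS. IFI44L had 12.52 with CDK11 siRNA, 12.68 with nonspecific siRNA and 10.36 untransfected in KHOS, against 3.87 with CDK11 siRNA, 3.47 with nonspecific siRNA and 3.12 untransfected in U-2OS. IFI27 was 4.61-fold higher in KHOS with CDK11 siRNA and 4.73-fold with nonspecific siRNA, while in U-2OS these ratios were 1.12 and 0.885.

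RSAD2, or viperin, makes a nucleotide that ends viral RNA chains, and the kinase CMPK2 is its neighbour in the genome and supplies nucleotides. RSAD2 had 9.99 with CDK11 siRNA, 10.23 with nonspecific siRNA and 6.71 untransfected in KHOS, against 3.84 with CDK11 siRNA, 3.42 with nonspecific siRNA and 4.003 untransfected in U-2OS. In KHOS this is 9.71-fold higher with CDK11 siRNA and 11.5-fold higher with nonspecific siRNA than untransfected. CMPK2 had 11.71 with CDK11 siRNA, 11.64 with nonspecific siRNA and 9.45 untransfected in KHOS, against 2.90 with CDK11 siRNA, 3.10 with nonspecific siRNA and 2.87 untransfected in U-2OS. Both were higher on the siRNA arrays in KHOS and under the limit on all arrays in U-2OS.

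ISG20, an exonuclease that degrades RNA, was higher with both siRNAs in both lines. On its brightest probe set it had 8.41 with CDK11 siRNA, 8.19 with nonspecific siRNA and 6.44 untransfected in KHOS, against 8.49 with CDK11 siRNA, 8.52 with nonspecific siRNA and 7.38 untransfected in U-2OS. Its second probe set had 8.92 with CDK11 siRNA, 8.18 with nonspecific siRNA and 6.15 untransfected in KHOS, against 8.60 with CDK11 siRNA, 8.45 with nonspecific siRNA and 6.79 untransfected in U-2OS. In each line and on both probe sets the siRNA arrays were past 2-fold above the untransfected array, and it was the only one of the 42 genes past 2-fold in U-2OS with both siRNAs. Untransfected KHOS lay below untransfected U-2OS for ISG20, by a log2 difference of -0.94, as it did for LGALS3BP (-1.72) and BST2 (-0.24). With the lines as replicates its CDK11 siRNA difference had an adjusted p of 0.1004 in limma on the second probe set, so it did not pass.

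At the membrane, PLSCR1, a phospholipid scramblase, had 14.11 with CDK11 siRNA, 14.03 with nonspecific siRNA and 13.17 untransfected in KHOS, against 11.40 with CDK11 siRNA, 11.35 with nonspecific siRNA and 11.21 untransfected in U-2OS. BST2 had 7.75 with CDK11 siRNA, 7.95 with nonspecific siRNA and 5.93 untransfected in KHOS, against 6.37 with CDK11 siRNA, 5.92 with nonspecific siRNA and 6.17 untransfected in U-2OS. RTP4, a receptor transporter protein that binds viral RNA, had 7.96 with CDK11 siRNA, 8.12 with nonspecific siRNA and 2.88 untransfected in KHOS, against 2.23 with CDK11 siRNA, 2.23 with nonspecific siRNA and 2.22 untransfected in U-2OS. It had the largest KHOS differences of any member, 33.8-fold with CDK11 siRNA and 37.8-fold with nonspecific siRNA. Its untransfected level was well under the limit, so both folds and their rank depend on how the normalization set low signals. BST2 and IFITM1 were past 2-fold in KHOS with both siRNAs, while PLSCR1 was not.

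PARP9 and DTX3L act as a complex that modifies proteins, and PARP12 and PARP14 are ADP-ribosyltransferases. In KHOS 3 of 5 probe sets were past 2-fold with each siRNA. DTX3L had 11.65 with CDK11 siRNA, 11.78 with nonspecific siRNA and 10.94 untransfected in KHOS, against 9.61 with CDK11 siRNA, 9.34 with nonspecific siRNA and 9.28 untransfected in U-2OS. Of the TRIM and SP110 nuclear and ubiquitin ligase proteins, 4 of 7 probe sets were past 2-fold with CDK11 siRNA and 7 with nonspecific siRNA. SP110 had 11.26 with CDK11 siRNA, 11.32 with nonspecific siRNA and 10.30 untransfected in KHOS, against 9.19 with CDK11 siRNA, 9.05 with nonspecific siRNA and 8.86 untransfected in U-2OS. TRIM21, an intracellular antibody receptor, had 7.87 with CDK11 siRNA, 7.42 with nonspecific siRNA and 6.14 untransfected in KHOS, against 5.87 with CDK11 siRNA, 5.90 with nonspecific siRNA and 6.02 untransfected in U-2OS. TRIM22 was 9.22-fold higher with CDK11 siRNA and 8.40-fold with nonspecific siRNA in KHOS. In U-2OS its log2 differences were -0.68 and -0.79, with every U-2OS array under the limit.

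The intracellular factors SAMD9 and SAMD9L restrict poxviruses, DDX60 is a helicase of RNA sensing, and XAF1 promotes cell death. In KHOS 8 of the 10 probe sets of this group, which includes EPSTI1, were past 2-fold with CDK11 siRNA and 9 with nonspecific siRNA. SAMD9 had 12.49 with CDK11 siRNA, 12.54 with nonspecific siRNA and 11.59 untransfected in KHOS, against 7.72 with CDK11 siRNA, 7.13 with nonspecific siRNA and 7.34 untransfected in U-2OS. DDX60 had 10.07 with CDK11 siRNA, 11.03 with nonspecific siRNA and 9.75 untransfected in KHOS, with its nonspecific siRNA array the high one. Of the secreted members, the chemokine CXCL11 was 2.82-fold higher with CDK11 siRNA and 2.45-fold with nonspecific siRNA in KHOS. CXCL10 was under the limit on every array, at 4.25 with CDK11 siRNA, 4.33 with nonspecific siRNA and 2.77 untransfected in KHOS, against 2.76 with CDK11 siRNA, 2.77 with nonspecific siRNA and 2.73 untransfected in U-2OS.

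Between the siRNAs few probe sets differed by 2-fold, among the members and among all. The KHOS counts below are near the shares of all, so they show nothing particular to the members. For CDK11 siRNA against nonspecific siRNA, 0 of 67 were past 2-fold higher and 0 lower in KHOS, against 1.85% and 2.18% of all, and the differences ran between -0.96 and 0.83 with a median of 0.02. In U-2OS 3 were higher (4.48%) and 0 lower, against 1.29% and 1.11% of all, with a median of 0.07. The 3 were the brightest probe set of OAS1 (1.73), 1 of SAMD9L (1.49) and 1 of OASL (1.13), with all their U-2OS arrays under the limit. DDX60 had the lowest KHOS difference.

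The 19 probe sets above the limit in untransfected U-2OS could show a difference in either direction in that line. In KHOS, 9 of them were past 2-fold higher with CDK11 siRNA and 14 with nonspecific siRNA, with medians of 0.97 and 1.07. In U-2OS 2 were past it with each siRNA, both of them ISG20, and the medians were 0.16 and 0.05.

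**Figure D4:**
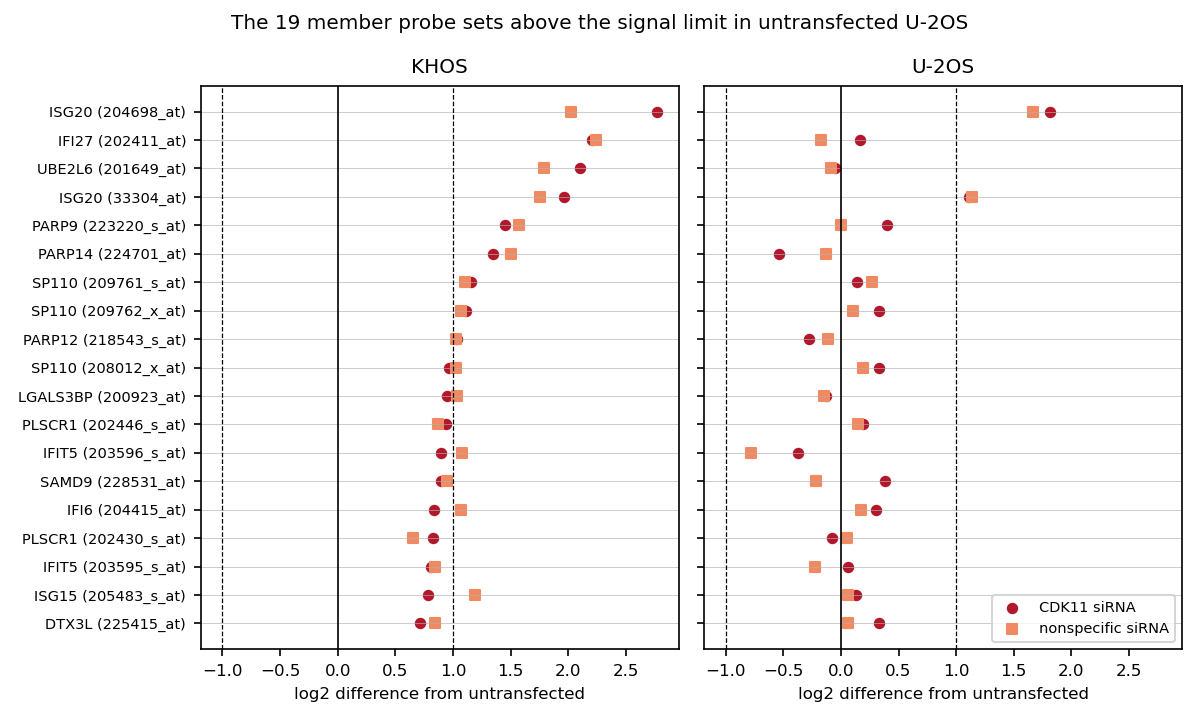
Log2 difference from untransfected cells for the 19 member probe sets above the signal limit in untransfected U-2OS, with KHOS in the left panel and U-2OS in the right. Points are single arrays, and the 2 ISG20 probe sets are the ones past 1 log2 unit in U-2OS with both siRNAs.

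With the lines as replicates of a transfection, limma called 0 of 67 members for CDK11 siRNA against untransfected, nonspecific siRNA against untransfected or CDK11 siRNA against nonspecific siRNA, and 0 of all 16397 probe sets (0%). This fit counts a difference seen in only 1 line as spread, and the median SE was 0.48 for members and 0.15 for all. The 0 therefore does not measure the difference in KHOS alone. At an unadjusted p under 0.05, 17 members were higher for CDK11 siRNA against untransfected, against 8.72% of all, 14 were higher for nonspecific siRNA against untransfected, against 3.43%, and 1 was lower for CDK11 siRNA against nonspecific siRNA, against 7.1%. In a fit chosen after seeing the data, which sets the 2 siRNA arrays of a line, of different siRNAs, against its 1 untransfected array, 0 members passed in either line or for the difference between the lines. As a description of a pattern already seen, 62 of 67 members in KHOS had an unadjusted p under 0.05, all higher, against 4.56% higher of all. RTP4 came closest, with a log2 difference of 5.16 ± 0.16 (SE, n = 2 siRNA arrays against 1 untransfected array) and an adjusted p of 0.054 in limma. In U-2OS 12 had an unadjusted p under 0.05, 8 of them higher and 4 lower, against 3.08% higher and 3.51% lower of all. For the KHOS response minus the U-2OS response 55 had an unadjusted p under 0.05, all larger in KHOS, against 2.94% of all, with a median of 1.66 log2 units. Of the 67 members, 47 were above the limit on no U-2OS array, so for these the difference between the lines mostly restates the KHOS rise. Only 48 were above the limit in untransfected KHOS, and most of the others were kept only through a transfected KHOS array. The spread in this fit is the gap between 2 different siRNAs. The unadjusted counts of this fit therefore describe the members and do not support a difference. This fit has 2 residual degrees of freedom, and on simulated data of this size it recovered 10.4% of changes of 2 log2 units in KHOS and 63.6% of changes of 3.

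Other genes of the pathway were counted from further lists. Among all 16397 kept probe sets, 3.29% were past 2-fold higher in KHOS with CDK11 siRNA and 1.29% with nonspecific siRNA. In U-2OS these shares were 1.39% and 1.02%. Of the 10 kept probe sets of interferon ligands and receptors, 2 were past 2-fold higher in KHOS with each siRNA, and in U-2OS 0 with CDK11 siRNA and 1, IFNL2, with nonspecific siRNA. Those in KHOS were IFNB1, interferon beta, and the type III interferon IFNL2. IFNB1 had 8.56 with CDK11 siRNA, 8.25 with nonspecific siRNA and 6.50 untransfected in KHOS, against 2.37 with CDK11 siRNA, 2.39 with nonspecific siRNA and 2.34 untransfected in U-2OS. IFNL2 had 7.26 with CDK11 siRNA, 6.98 with nonspecific siRNA and 4.14 untransfected in KHOS, against 3.58 with CDK11 siRNA, 3.94 with nonspecific siRNA and 2.65 untransfected in U-2OS, and near-identical genes can share its probes. Among 13 probe sets of signalling genes 5 were past it in KHOS with CDK11 siRNA and 4 with nonspecific siRNA, and 0 in U-2OS with either. In U-2OS with CDK11 siRNA 1 of the 13 was past 2-fold lower, against 2.12% of all. It was IRF3, a factor that drives interferon genes, with a log2 difference of -1.30. Its U-2OS levels were 4.78 with CDK11 siRNA, 5.87 with nonspecific siRNA and 6.08 untransfected, all under the limit. IRF7, a factor of the same kind, had 9.53 with CDK11 siRNA, 9.66 with nonspecific siRNA and 8.52 untransfected in KHOS, against 2.62 with CDK11 siRNA, 3.07 with nonspecific siRNA and 2.60 untransfected in U-2OS. IRF9, part of the response complex, had 10.24 with CDK11 siRNA, 10.15 with nonspecific siRNA and 8.997 untransfected in KHOS, against 7.94 with CDK11 siRNA, 7.74 with nonspecific siRNA and 7.31 untransfected in U-2OS. These genes were chosen after their values were seen. Of 61 probe sets of other interferon-responsive genes, 16 were higher past 2-fold in KHOS with CDK11 siRNA and 15 with nonspecific siRNA, and 0 lower, with medians of 0.71 and 0.72, and in U-2OS 0 and 2 were higher.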

How the data were processed

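RNA was measured on Affymetrix U133 Plus 2.0 arrays. The authors deposited log2 values per probe set, made with gcrma, which adjusts background from probe sequence, normalizes by quantiles and summarises each probe set. Quantile normalization fixes the distribution of every array, so values are relative. The gcrma version is not given in the sources used here.

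Symbols came from the platform annotation, where 41097 probe sets had 1 symbol, 1801 several and 11777 none. Probe sets with several were not named, except those shared by CDK11A and CDK11B. Members and lists were chosen with earlier results of these data known. With 1 array per group, differences were counted past 1 log2 unit with no test. The 16397 kept probe sets of all 6 arrays were fitted in limma 3.58.1 (R 4.3.3) with cell line and transfection as terms, 2 residual degrees of freedom and two-sided Benjamini-Hochberg adjustment at 0.05. It was tested on simulated data, where for CDK11 siRNA against untransfected it recovered 0% of changes of 1 log2 unit, 50.7% of 2 and 81.8% of 3. Those changes were equal in both lines and set on probe sets drawn from all kept ones. The median SE in the fit of the real data was 0.15 for all and 0.48 for members, so these rates do not hold for a difference in KHOS alone. P-values measure only the spread between these arrays. Values on all arrays were given for the brightest probe set of members past 1 log2 unit in both lines, of the 5 largest and 5 smallest differences between untransfected lines and of the brightest member of each group, and RTP4, RSAD2 and DDX60 were added after their values were seen. Promoters were read from RefSeq (GRCh38.p14), where 37 of 44 members matched, and TRIM22, IFIT2, OAS2, MX2, LAMP3, OASL and USP18 were not analysed there. Alternatives were other signal limits, a 3-fold bound, 1 probe set per gene, median centring, another variance prior and leaving out each array. Python 3.11.15, pandas 2.3.3, numpy 2.4.6 and matplotlib 3.10.9 were used.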

Additional observations from a re-analysis of the deposited data

Results flagged for a closer look

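For 11 of the 42 genes, by the brightest probe set, both siRNA arrays lay above the untransfected array in KHOS and both lay below it in U-2OS. This is 26.2% of the genes, and 19 of the 67 probe sets (28.4%), against 8.50% of all 16397. All 67 lay above untransfected in KHOS with both siRNAs, so this share only counts those below it in U-2OS. There 34 lay above with both siRNAs and 19 below, so the excess over all restates the KHOS rise. Both siRNA arrays of a line are set against the same untransfected array. In 7 of the 11 genes, TRIM22, RSAD2, MX2, IFI35, OAS3, IFIT1 and TRIM21, all U-2OS arrays were under the signal limit. The second OAS3 probe set was above untransfected in U-2OS, by 0.018 with CDK11 siRNA and 0.022 with nonspecific siRNA. The opposite directions were not tested gene by gene, and in the fit added after seeing the data 0 members passed for the difference between the lines. The mean siRNA difference from untransfected cells was larger in KHOS than in U-2OS by 3.87 log2 units for TRIM22 (3.14 in KHOS, -0.74 in U-2OS), 3.77 for RSAD2 (3.40 and -0.37), 2.67 for MX2 (2.48 and -0.20) and 2.37 for IFI35 (1.96 and -0.42). For OAS3 the lines differed by 2.22 (1.61 and -0.61), for UBE2L6 by 2.02 (1.95 and -0.07), for IFIT1 by 1.84 (1.79 and -0.05) and for PARP14 by 1.76 (1.43 and -0.34). TRIM21 had 1.63 (1.498 and -0.13), PARP12 1.22 (1.03 and -0.19) and LGALS3BP 1.13 (0.99 and -0.14). PARP12, LGALS3BP and UBE2L6 were above the signal limit on all 3 U-2OS arrays.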

How the results depend on the processing

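No member median past 1 log2 unit changed sign with other signal limits, 1 probe set per gene or median centring. The directions of single calls were not compared between settings. With 1 probe set per gene, 2 medians near 0 changed sign, to -0.02 against 0.02 for nonspecific siRNA against untransfected in U-2OS and to -0.01 against 0.02 for CDK11 siRNA against nonspecific siRNA in KHOS. The median difference between the untransfected lines was 3.70 with 1 probe set per gene, 3.63 with a signal limit of 200, 2.83 with no limit and 2.89 with median centring, against 3.03. With 1 probe set per gene, of 42 genes, 33 were past 2-fold in KHOS with CDK11 siRNA and 37 with nonspecific siRNA, 3 and 1 in U-2OS, 35 in untransfected KHOS against untransfected U-2OS and 39 by limma between the lines. These are smaller in part because fewer probe sets enter. In U-2OS with CDK11 siRNA, OASL and SAMD9 also left, because their brightest probe sets differed by 0.43 and 0.38. A 3-fold bound left 39 of 67 in KHOS with nonspecific siRNA, 2 in U-2OS with CDK11 siRNA, 1 with nonspecific siRNA and 1 in U-2OS for CDK11 siRNA against nonspecific siRNA. Without a signal limit, 2 of 74 were lower with CDK11 than nonspecific siRNA in KHOS, and 0 were lower in KHOS than U-2OS by limma. With each array centred on its median, 2 probe sets were lower in untransfected KHOS than in untransfected U-2OS and 2 by limma. A variance prior that depends on level called 4 probe sets for CDK11 siRNA against untransfected: both of ISG20 (adjusted p 0.00683 and 0.0163), 1 of IFIT3 (0.0171) and 1 of SAMD9 (0.0346). In the fit added after seeing the data, RTP4 passed for KHOS as 1 call with a signal limit of 200 (adjusted p 0.0319), with 1 probe set per gene (0.0227) and with median centring (0.0461). The cause was not tested. Leaving out each array in turn gave 58 to 64 members higher in KHOS by limma and 1 lower, and 0 in the other limma comparisons of the planned fit. The labels give no replicate numbers, so the only pairing of arrays is by cell line, which is a term of the planned fit. The number of arrays, 1 for each condition, limits the precision.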
